A study of Mus musculus with 11 samples.

Results

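Elovl7, Ublcp1, Trim13, Zfp971, Chpt1, Mpp7, B4galt5, Rnf130 and Cenpj were 9 of the 19937 genes measured in a mouse model of TCL1A-driven T-cell leukemia. They were chosen because each lay well above wild-type T-cells in 1 or both phases of the disease, and because none of them belongs to a program usually described in T-cells. That name is a working one, and the choice had no stated cutoff on the size of the rise. The levels against wild type that are given here chose the genes, so they are described without a p-value. The comparison of the leukemia phases rests on the same arrays and is described in the same way. Where the members that passed a threshold are counted, the count follows in part from this choice and is no test of it.

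The arrays fell into 3 groups. Leukemic cells came from Lckpr-TCL1A+/- mice, which are hemizygous for a human TCL1A transgene under the proximal Lck promoter, a promoter active in T-cells from the thymus onward. CD8+ T-cells were enriched from their spleens. The chronic phase (n = 3 arrays, average age 12 months) was set at 30 to 70% tumor cells in blood and spleen. The exponential phase (n = 5 arrays, average age 15 months) was set at over 80% tumor cells in blood and over 90% in spleen, with a mean doubling time of blood lymphocytes of 12 days (SEM 0.8). The wild-type group (n = 3 arrays) held splenic CD3+ pan-T-cells of age-matched C57BL/6 mice, each array being a pool of 3 mice. No mouse received a treatment by the labels. Leukemia therefore went together with a different selection of cells (CD8+ against CD3+) and with other pooling of mice, and these cannot be told apart from the disease. The chronic and exponential groups differed in average age and in the share of tumor cells, which cannot be told apart from the phase. In such bulk samples more cells of a type and more RNA per cell cannot be told apart either. The labels do not tell how many mice stood behind a leukemia array, and the errors and p-values given therefore cover the spread from array to array, which may be technical.

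The 9 genes act in separate corners of cell biology. Elovl7, Chpt1 and B4galt5 encode membrane-bound enzymes that build lipids: Elovl7 catalyzes the condensation step that lengthens saturated and monounsaturated fatty acids, Chpt1 joins phosphocholine to diacylglycerol in the last step of phosphatidylcholine synthesis, and B4galt5 adds galactose to glucosylceramide and so makes lactosylceramide, the stem of most complex glycosphingolipids. Ublcp1, Trim13 and Rnf130 belong to protein turnover: Ublcp1 is a nuclear phosphatase that docks on the 19S cap of the proteasome through a ubiquitin-like domain, Trim13 is an endoplasmic reticulum RING ubiquitin ligase with a part in the degradation of misfolded proteins, and Rnf130 is a transmembrane RING ligase related to Drosophila goliath. Mpp7 is a membrane-associated guanylate kinase scaffold that binds polarity proteins, Cenpj builds the centriole wall and sets its length, and Zfp971 is a zinc-finger gene of a repeated cluster whose function is not described here.

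The expression values were log2 signals in which every array had the same distribution, with a median over all rows of 2.30 and a range from 0.77 to 13.5, so a difference of 1 is a change of 2-fold. Folds are those of this normalized signal, in which changes of rows near the array median, such as B4galt5 in wild type, are compressed, so such folds can understate the change. Over all rows, arrays of different groups correlated with each other at r from 0.929 to 0.966, and arrays within a group at r from 0.944 to 0.969. The T-cell gene Cd3e was high on every array, between 6.85 and 8.32. Exponential replicate 4 went against its CD8+ label, with Cd8a at 2.96 against 7.94 to 8.20 on the other exponential arrays and Cd4 at 5.18. Exponential values of the 9 genes, and those of other genes that it moves, are therefore also given without it. Mouse Tcl1 was at 1.63 ± 0.02 (SD, n = 3) in wild type, 1.78 ± 0.04 (n = 3) in the chronic phase and 1.64 ± 0.12 (n = 5) in the exponential phase, and since this row is annotated to the mouse gene, it checks nothing about the human transgene.

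Against wild type, most of the 9 genes differed more in the chronic than in the exponential phase. The median of the 9 differences, chronic minus wild type, was 1.77 on the log2 scale, with single genes between 0.79 (B4galt5) and 2.66 (Elovl7), while the median over all 19937 genes was 0.00. Elovl7 and Ublcp1 had the largest and second largest positive differences of the whole array in this comparison (ranks 1 and 2), Trim13 and Zfp971 followed at ranks 4 and 5, and the lowest member was B4galt5 at rank 328. For every member, each chronic array lay above each wild-type array, which was also true of 8.28% of all genes, and the opposite order, seen for no member, held for 7.52%. The members were chosen on this contrast, so nothing is read from these counts or from the 7 members, all but B4galt5 and Rnf130, that passed the limma threshold (adjusted p under 0.05 and at least 1.5-fold, in either direction; 0.456% of all genes). The 7 became 3 without wild-type replicate 1 or 3, and 4 without wild-type replicate 2 or chronic replicate 1. Calls over all genes also changed when single arrays were left out, as given further below, so these changes are no trait of the members.

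Most differences were smaller in the exponential phase, but those of B4galt5 and Rnf130 were larger. The median of the 9 differences, exponential minus wild type, was 1.26 on the log2 scale (1.25 without exponential replicate 4), with single genes between 0.28 (Mpp7) and 1.87 (Trim13) and a median over all genes of 0.01. The ranks among all genes ran from 12 (Trim13) to 1808 (Mpp7). All exponential arrays lay above all wild-type arrays for 4 members, Ublcp1, B4galt5, Rnf130 and Cenpj, and the same held for 3.28% of all genes, with 3.5% in the opposite order. Without exponential replicate 4, this count was 6 of 9, with Elovl7 and Chpt1 added, and 5.23% of all genes. The same 4 members passed the limma threshold, as 0.416% of all genes did in either direction, and nothing is read from this either, since the contrast entered the choice. That count was 0 without wild-type replicate 1, 1 without exponential replicate 2 or wild-type replicate 2 or 3, 2 without exponential replicate 1 or 3, and 5 without exponential replicate 4. The calls over all genes changed as well, as given further below, and nothing about the members is read from these counts.

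**Figure D1:**
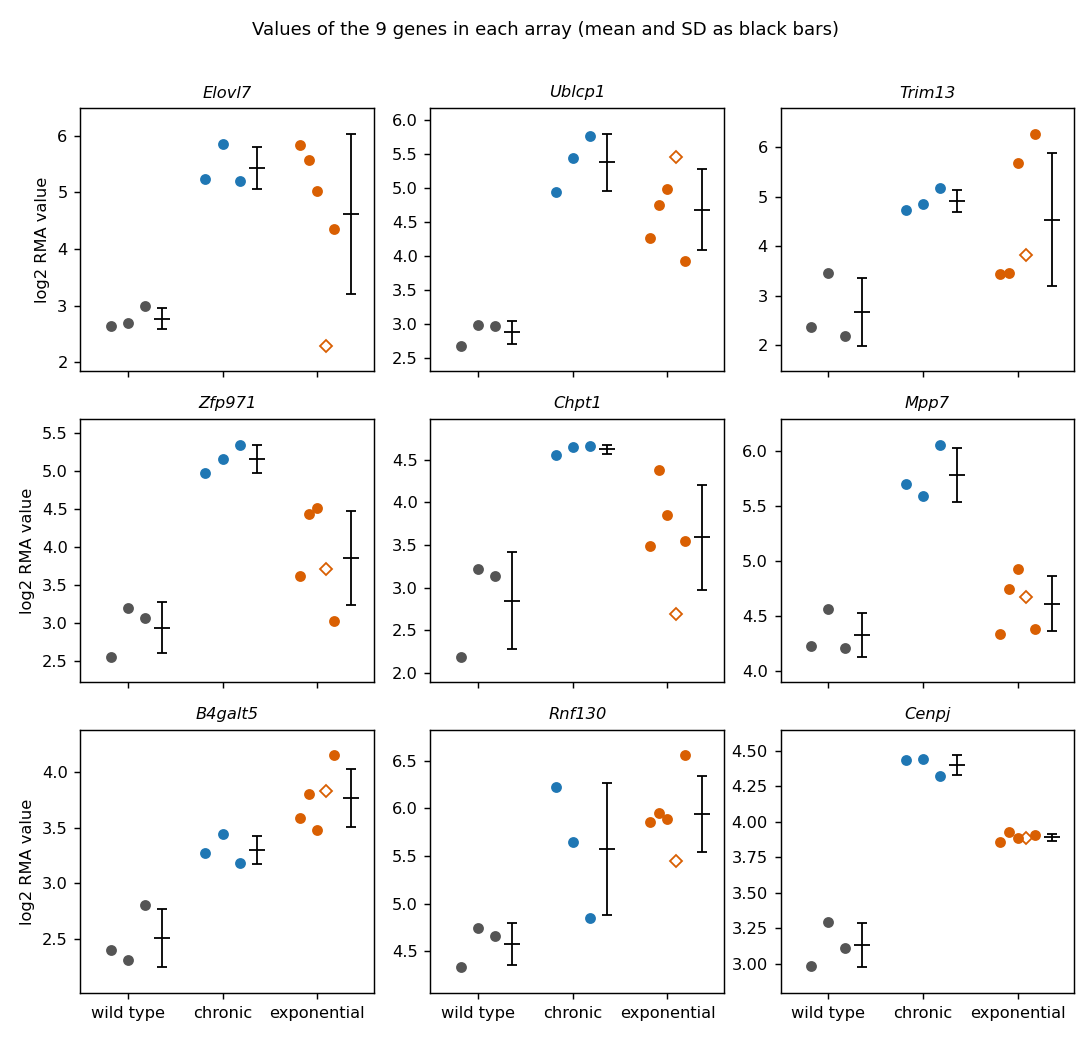
Log2 expression of the 9 genes (y axis, log2 signal) on each array of the wild-type (n = 3), chronic (n = 3) and exponential (n = 5) groups. Points are single arrays, bars are the mean ± SD, and the open diamond is exponential replicate 4, on which Elovl7 fell to 2.29. For every gene the chronic points sit above the wild-type points, and for Zfp971, Chpt1, Mpp7 and Cenpj they also sit above all exponential points.

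Among the lipid enzymes, Elovl7 went from the lower part of the scale to a mid-range signal in nearly all leukemias. It measured 2.63, 2.69 and 2.98 on the wild-type arrays, 5.23, 5.85 and 5.20 on the chronic arrays, and 5.83, 5.57, 5.02, 2.29 and 4.36 on exponential replicates 1 to 5. The level on exponential replicate 4 lay below all wild-type arrays, and the other 7 leukemia arrays lay well above them with no overlap. The chronic mean of 5.43 ± 0.37 (SD, n = 3) exceeded the wild-type mean of 2.77 ± 0.19 (n = 3) by 2.66 ± 0.20 (SE), or 6.31-fold. The exponential mean was 4.61 ± 1.42 (n = 5), which was 1.84 ± 0.68 (SE) above wild type. Without exponential replicate 4 the exponential mean was 5.20 ± 0.65 and the difference 2.43, so 1 array held most of the apparent gap between the leukemia phases, which shrank from -0.81 to -0.23 (exponential minus chronic). With replicate number as a block that gap was 0.05. No chronic array shares the numbers of exponential replicates 4 and 5, so these lowest arrays do not count in that fit. The direction of the gap rests on them and is not settled.

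Chpt1 was tightest in the chronic phase. It measured 2.19, 3.22 and 3.13 in wild type, 4.55, 4.65 and 4.66 in the chronic phase, and 3.49, 4.38, 3.85, 2.69 and 3.55 on exponential replicates 1 to 5. The chronic arrays were higher than all others, the exponential arrays lay between, and exponential replicate 4 fell inside the wild-type range. The chronic excess over wild type was 1.77 ± 0.26 (SE; 3.42-fold), the exponential excess was 0.74 ± 0.36 (1.68-fold), and the exponential mean lay 1.03 ± 0.31 below the chronic mean, a difference of -1.03. Without exponential replicate 4 these values were 0.97 and -0.80, and without wild-type replicate 1, the lowest array, the exponential excess was 0.42. The SD over arrays was 0.06 in the chronic phase and 0.62 in the exponential phase.

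B4galt5 was the single member that was highest in the exponential phase on all arrays. It measured 2.40, 2.31 and 2.80 in wild type, 3.27, 3.44 and 3.19 in the chronic phase, and 3.58, 3.80, 3.48, 3.83 and 4.15 on exponential replicates 1 to 5. The 3 groups formed steps without overlap, although the lowest exponential array (3.48) was close to the highest chronic array (3.44). The chronic mean exceeded wild type by 0.79 ± 0.16 (SE; 1.73-fold), and the exponential mean did so by 1.26 ± 0.17 (2.40-fold). The exponential mean was 0.47 ± 0.15 above the chronic mean, and 0.45 above it without exponential replicate 4. The wild-type mean of 2.51 was close to the median signal of the arrays, so in normal T-cells this row gave little signal.

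Among the protein turnover genes, Ublcp1 was elevated on all leukemia arrays. It measured 2.68, 2.99 and 2.97 in wild type, 4.94, 5.44 and 5.77 in the chronic phase, and 4.27, 4.75, 4.99, 5.46 and 3.94 on exponential replicates 1 to 5. The lowest leukemia array, exponential replicate 5, was still above the highest wild-type array, while the leukemia phases overlapped. The chronic mean lay 2.50 ± 0.22 (SE; 5.67-fold) above wild type and the exponential mean 1.80 ± 0.30 (3.49-fold), or 1.61 without exponential replicate 4. On exponential replicate 4, where Elovl7 was lowest, Ublcp1 was the member furthest above its wild-type mean, by 2.58.

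Trim13 was uniform in the chronic phase and split the exponential arrays. It measured 2.37, 3.45 and 2.19 in wild type, 4.74, 4.86 and 5.17 in the chronic phase, and 3.44, 3.47, 5.69, 3.83 and 6.27 on exponential replicates 1 to 5. Exponential replicates 3 and 5 were above all chronic arrays, whereas replicates 1 and 2 were level with the highest wild-type array. The chronic excess was 2.25 ± 0.32 (SE; 4.76-fold), and the exponential excess of 1.87 ± 0.68 (3.65-fold) had the largest exponential mean difference of the 9 genes together with 1 of the largest errors. The exponential excess was 2.05 without exponential replicate 4. The exponential minus chronic difference of -0.38 ± 0.65 was smaller than its error and lay between -0.82 (without exponential replicate 5) and -0.11 (without exponential replicate 1). It was -0.11 without replicate 2, -0.67 without replicate 3 and -0.20 without replicate 4. The SD was 1.34 in the exponential phase (n = 5) and 0.23 in the chronic phase (n = 3). The level on exponential replicate 5 stood 3.60 above the wild-type mean, the highest single value of any member relative to its wild-type mean.

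Rnf130 was higher on the leukemia arrays of both phases. It measured 4.33, 4.75 and 4.66 in wild type, 6.22, 5.64 and 4.85 in the chronic phase, and 5.85, 5.95, 5.89, 5.45 and 6.56 on exponential replicates 1 to 5. Each leukemia array lay above each wild-type array, chronic replicate 3 only narrowly so, and the leukemia phases overlapped. The chronic mean was 0.99 ± 0.32 (SE; 1.99-fold) above wild type and the exponential mean 1.36 ± 0.22 (2.57-fold), or 1.48 without exponential replicate 4. The exponential minus chronic difference of 0.37 ± 0.31 rested on single arrays, being 0.01 without chronic replicate 3, 0.21 without exponential replicate 5 and 0.69 without chronic replicate 1. Rnf130 was the member with the widest chronic spread, with an SD of 0.69.

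Of the other 3 genes, Mpp7 had the smallest exponential difference from wild type. It measured 4.23, 4.56 and 4.21 in wild type, 5.70, 5.59 and 6.06 in the chronic phase, and 4.34, 4.75, 4.93, 4.67 and 4.38 on exponential replicates 1 to 5. The exponential arrays overlapped the wild-type arrays, and all chronic arrays were above both. The chronic excess was 1.45 ± 0.17 (SE; 2.73-fold) and the exponential difference from wild type was 0.28 ± 0.16 (1.21-fold), leaving the exponential mean at -1.17 ± 0.17 relative to the chronic mean. These last values were 0.27 and -1.19 without exponential replicate 4.

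Cenpj varied least of the 9 in the exponential phase. It measured 2.98, 3.30 and 3.11 in wild type, 4.44, 4.44 and 4.32 in the chronic phase, and 3.86, 3.93, 3.89, 3.88 and 3.91 on exponential replicates 1 to 5. The groups formed 3 separate bands, with the exponential band in the middle and exponential replicate 4 inside it. The chronic mean was 1.27 ± 0.13 (SE; 2.41-fold) above wild type, the exponential mean 0.76 ± 0.09 (1.70-fold), and the exponential mean was 0.51 ± 0.08 below the chronic mean, a difference of -0.51. The SD was 0.03 over the 5 exponential arrays and 0.07 over the 3 chronic arrays.

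Zfp971 had the widest gap between the leukemia phases. It measured 2.56, 3.20 and 3.07 in wild type, 4.97, 5.16 and 5.35 in the chronic phase, and 3.62, 4.43, 4.52, 3.71 and 3.03 on exponential replicates 1 to 5. All chronic arrays were above all exponential arrays, and exponential replicate 5 lay within the wild-type range. The chronic excess over wild type was 2.21 ± 0.19 (SE; 4.64-fold), the exponential excess 0.92 ± 0.32 (1.89-fold), and the exponential minus chronic difference -1.30 ± 0.31. They were 0.96 and -1.26 without exponential replicate 4.

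For 7 members the array held 1 row that named the gene, while Mpp7 and Zfp971 had more. A second Mpp7 row did not separate the groups, with 2.84 ± 0.42 (SD, n = 3) in wild type, 3.24 ± 0.31 (n = 3) in the chronic phase and 3.01 ± 0.24 (n = 5) in the exponential phase. Averaging both rows lowered the chronic excess of Mpp7 from 1.45 to 0.92. Zfp971 was also named on 3 rows shared with other zinc-finger genes, so its own row may share near-identical sequence with that cluster, and its value is uncertain for that reason. On the row shared by 18 genes the chronic arrays lay between 5.73 and 5.82 and the wild-type arrays between 4.84 and 5.14, with the exponential arrays between 4.78 and 5.74. The rows shared by 14 and by 17 genes differed less, with chronic means of 4.08 ± 0.60 and 3.56 ± 0.21 against wild-type means of 3.94 ± 0.09 and 3.04 ± 0.25. Their exponential means were 3.59 ± 0.50 and 3.15 ± 0.43. On the row shared by 14 genes the exponential mean thus lay below wild type, opposite to the row used for Zfp971.

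**Figure D2:**
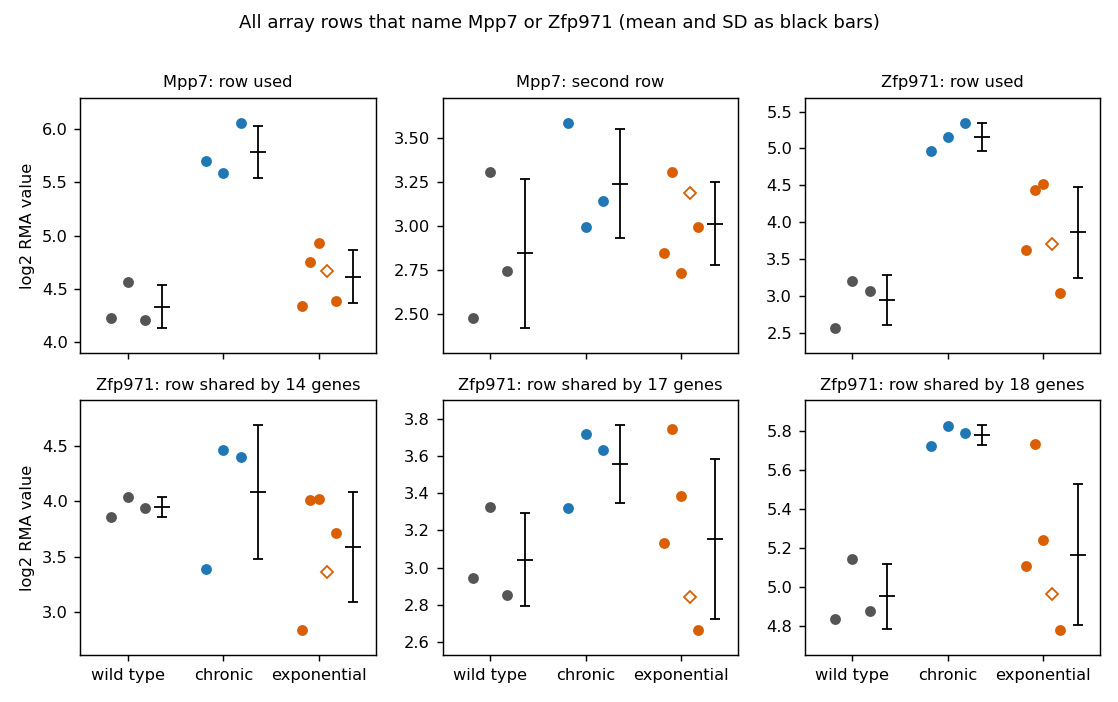
Log2 signal (y axis) on each array for the rows that name Mpp7 or Zfp971, with the row used for each gene beside its other rows, and arrays colored by group. The second Mpp7 row stays between 2.48 and 3.58 with its groups overlapping, and of the shared zinc-finger rows the 18-gene row has all 3 chronic arrays above the wild-type arrays.

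Set against each other, the leukemia phases divided the members. In 7 of the 9 the exponential mean was below the chronic mean, and B4galt5 and Rnf130 were the exceptions. The Elovl7 difference was 0.05 under the replicate block, in which exponential replicates 4 and 5 do not count. That for Rnf130 was 0.01 without chronic replicate 3. The median difference, exponential minus chronic, was -0.70 (-0.51 without exponential replicate 4), against 0.00 over all genes. All exponential arrays lay below all chronic arrays for 4 members, Zfp971, Chpt1, Mpp7 and Cenpj, which 2.25% of all genes also did, and above them for B4galt5 alone, which 2.3% did. Without exponential replicate 4 these counts were again 4 and 1, against 3.82% and 3.4% of all genes. The chronic arrays were above every other array, wild type included, for the same 4 members and for 0.933% of all genes. All 8 leukemia arrays exceeded all wild-type arrays for Ublcp1, B4galt5, Rnf130 and Cenpj, as for 1.67% of all genes. Without exponential replicate 4, Elovl7 and Chpt1 joined them, at 2.38% of all genes, and the chronic arrays were above every other array again for 4 members, at 1.46%. In the limma fit of exponential against chronic, 0.0% of all genes and none of the members were called, with 1246 genes at an unadjusted p under 0.05 and 123 genes past the 1.5-fold limit in the methods' t-test without adjustment.

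**Figure D3:**
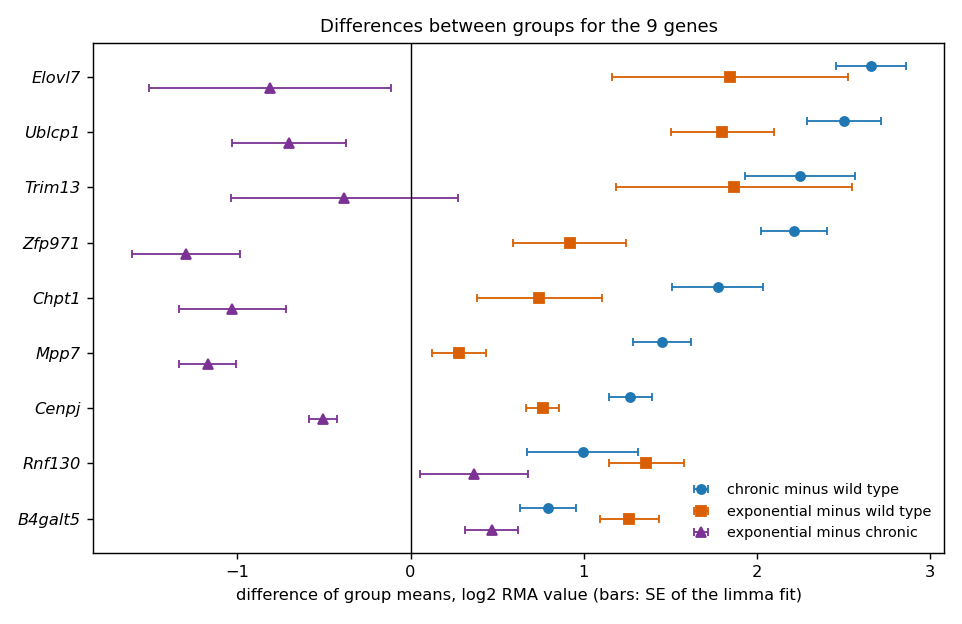
Differences in mean log2 expression for each of the 9 genes (x axis, log2 difference, with SE bars from the limma fits): chronic minus wild type, exponential minus wild type and exponential minus chronic. The first difference exceeds the second for 7 genes, and the third lies to the right of 0 for B4galt5 (0.47) and Rnf130 (0.37).

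The promoters of the genes with the clearest phase pattern are shown as reference sequence, so that the patterns can be set beside the DNA in front of each start site. RefSeq windows (assembly GRCm38.p6) were at hand for 8 members, Mpp7 being the one without, and the 250 bases before the start are given 5′ to 3′ on the gene's strand. Capitals mark CCAAT boxes (CCAAT or its reverse complement ATTGG) in Zfp971 and GC boxes (GGGCGG or CCGCCC) in the other sequences. Zfp971 (chr2:178023034-178023283, plus strand), Cenpj (chr14:56571847-56572096, minus strand) and Chpt1 (chr10:88503971-88504220, minus strand) stand for the members whose chronic arrays lay above every other array, and B4galt5 (chr2:167349179-167349428, minus strand) for the member with all exponential arrays above all chronic arrays.
Zfp971: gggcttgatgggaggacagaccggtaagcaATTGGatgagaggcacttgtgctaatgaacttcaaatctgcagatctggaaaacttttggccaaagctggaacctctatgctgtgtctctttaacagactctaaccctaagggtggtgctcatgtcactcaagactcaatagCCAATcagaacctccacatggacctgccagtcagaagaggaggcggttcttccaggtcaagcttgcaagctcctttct
Cenpj: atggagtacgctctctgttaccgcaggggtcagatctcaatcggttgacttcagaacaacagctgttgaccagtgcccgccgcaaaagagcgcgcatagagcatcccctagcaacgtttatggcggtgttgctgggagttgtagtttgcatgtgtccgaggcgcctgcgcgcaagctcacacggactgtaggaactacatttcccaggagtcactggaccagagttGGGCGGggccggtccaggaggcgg
Chpt1: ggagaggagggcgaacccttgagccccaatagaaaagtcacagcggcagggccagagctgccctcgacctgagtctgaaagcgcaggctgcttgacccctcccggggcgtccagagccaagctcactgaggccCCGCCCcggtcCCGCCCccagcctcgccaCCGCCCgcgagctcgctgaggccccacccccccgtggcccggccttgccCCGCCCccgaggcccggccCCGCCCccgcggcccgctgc
B4galt5: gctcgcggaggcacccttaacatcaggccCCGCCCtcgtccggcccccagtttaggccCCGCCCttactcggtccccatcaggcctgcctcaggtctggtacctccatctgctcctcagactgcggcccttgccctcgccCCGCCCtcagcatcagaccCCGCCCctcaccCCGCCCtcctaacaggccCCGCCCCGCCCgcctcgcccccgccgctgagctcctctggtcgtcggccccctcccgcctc

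None of the counted motifs was found in all 8 windows. GC boxes occurred in 5 of the 8 windows, 7 of them in B4galt5, where the last 2 overlap, 5 in Chpt1, 3 in Elovl7 and 1 each in Rnf130 and Cenpj. A GC box was present in 33.0% of 32536 distinct mouse promoter windows of the same length. A CCAAT box was found in 3 of the 8 (Zfp971 with 2, Trim13 and Chpt1 with 1 each) and in 33.8% of all windows. TATAAA or its reverse complement was found in Trim13 alone, against 12.3% of all windows. The E-box CACGTG (6.04% of all windows) and the ETS core CCGGAA or TTCCGG (12.1%) were in none of the 8. The GC content ran from 48.8% in Zfp971 to 76.4% in Rnf130, with a median of 52.4% over all windows. Zfp971 was the only one of the 8 below that median. A match is a stretch of letters and not a measured site.

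The relatives and pathway partners of the members were examined next, in 11 lists chosen by function that hold 162 measured genes besides the members. No gene of these lists was called by limma in any of the 3 comparisons. At an unadjusted p under 0.05, 14 list genes were higher and 9 lower in chronic than in wild type (14.2% of the list genes and 11.2% of all genes). In exponential against wild type 12 were higher and 20 lower (19.8% and 9.78%), and in exponential against chronic 3 were higher and 14 lower (10.5% and 6.25%). Without adjustment and with the 1.5-fold limit, the methods' t-test passed 7, 11 and 2 list genes in these comparisons.

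No other gene of fatty acid chain lengthening was called. The other 6 Elovl genes had a median difference of 0.14 in chronic and 0.06 in exponential against wild type, and the nearest to a call was Elovl5, which lengthens polyunsaturated chains, with 0.41 ± 0.14 (SE) in the exponential phase (limma adjusted p = 0.322). Elovl2, Elovl3 and Elovl4 had group means of 1.66 to 1.85, below the array median of 2.30, where changes are compressed. Their small differences therefore say little. Of 20 genes of fatty acid synthesis and elongation, Hacd3, a dehydratase of the same elongation cycle, stood at -0.81 ± 0.16 in exponential against wild type (adjusted p = 0.0757) and at -0.51 ± 0.13 in chronic against wild type (adjusted p = 0.180). It passed in the exponential comparison when all 3 groups were fitted together (adjusted p = 0.0422). Hacd1, a muscle-enriched relative, stood at -0.69 ± 0.17 in the exponential comparison (adjusted p = 0.165).

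For phosphatidylcholine synthesis the median over 17 list genes was 0.03 in chronic and 0.05 in exponential against wild type. Cept1, the close relative of Chpt1 that also makes phosphatidylethanolamine, had a chronic minus wild-type difference of -0.41 ± 0.15 (adjusted p = 0.351), a sign opposite to Chpt1. Selenoi, an ethanolamine phosphotransferase, was at 0.47 ± 0.15 (adjusted p = 0.300) in the same comparison. Lpcat1, which reacylates lysophosphatidylcholine, was at -0.39 ± 0.11 in exponential against wild type (adjusted p = 0.221). The choline transporter gene Slc44a1 had the widest gap between phases in this list, -1.85 ± 0.57 in exponential against chronic (adjusted p = 0.765).

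Around B4galt5, the other 5 measured B4galt genes had medians of 0.04 in both comparisons with wild type, and B4galt6, the closest relative and a second lactosylceramide synthase, was at 1.81 ± 0.26, 1.84 ± 0.14 and 1.85 ± 0.11 in wild type, chronic and exponential arrays. The group means of B4galt3 and B4galt6 lay below the array median of 2.30, so flat levels there say little. Ugcg, which makes the glucosylceramide that B4galt5 uses, was at 7.02 ± 0.22, 7.70 ± 0.29 and 7.77 ± 0.42, with differences from wild type of 0.68 ± 0.18 (SE; adjusted p = 0.206) in chronic and 0.75 ± 0.23 (adjusted p = 0.261) in exponential. Neither passed. Cers6, a ceramide synthase, was at -0.86 ± 0.19 in exponential against wild type (adjusted p = 0.112). Gla, the lysosomal galactosidase that removes terminal galactose, was at -0.69 ± 0.16 in chronic against wild type (adjusted p = 0.132), and St8sia1, the GD3 ganglioside synthase, at -0.67 ± 0.18 (adjusted p = 0.201). The median of the 17 glycosphingolipid genes was -0.19 in chronic and -0.02 in exponential against wild type.

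The 19S proteasome cap, to which Ublcp1 binds, gave the most one-sided list in the chronic phase. Of 17 measured subunits, 15 had a positive chronic minus wild-type difference and the median was 0.37, against 0.00 over all genes. The largest was Psmd6, a lid subunit, at 5.93 ± 0.45 (SD) in wild type, 7.02 ± 0.12 in chronic and 6.44 ± 0.05 in exponential. Its chronic difference of 1.09 ± 0.22 (SE) was not called (adjusted p = 0.103), although it passed when the 3 groups were fitted together (adjusted p = 0.0304). Psmc6, an ATPase subunit, was at 0.83 ± 0.20 (adjusted p = 0.164). In exponential against chronic 0 of 17 subunits had a positive difference, the median was -0.28, and limma called 0 with 5 lower at an unadjusted p under 0.05. In exponential against wild type the median was 0.06. These medians became -0.34, with 9 lower at an unadjusted p under 0.05, and 0.03 when exponential replicate 4 was left out. The other 7 FCP-type phosphatases had medians of -0.11 in chronic and -0.06 in exponential against wild type, and Ctdsp2 was nearest to a call, at -0.46 in the exponential phase (adjusted p = 0.394).

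The degradation pathway of the endoplasmic reticulum, in which Trim13 acts, leaned the other way in the exponential phase. Of 22 measured genes, 3 had a positive exponential minus wild-type difference, the median was -0.29, and 9 were lower and 0 higher at an unadjusted p under 0.05. None was called. The median was -0.26, with 8 lower, without exponential replicate 4. Nearest to a call was Ubxn4, at -0.35 ± 0.09 (adjusted p = 0.167), while Ube2j2 was at -0.35 ± 0.09 in exponential against chronic (adjusted p = 0.742). Some genes had larger falls in exponential against wild type but were further from a call. Sel1l, the adaptor of the Hrd1 ligase complex, was at -1.36 ± 0.37 (adjusted p = 0.209), and its ligase Syvn1 was at -0.69 ± 0.20 (adjusted p = 0.248). Herpud1, a stress-induced member of this complex, was at -1.04 ± 0.30 (adjusted p = 0.231), Edem1, which trims glycans of misfolded proteins, at -0.99 ± 0.27 (adjusted p = 0.208), and Ube2j1, a membrane-bound ubiquitin-conjugating enzyme, at -0.84 ± 0.22 (adjusted p = 0.179). In chronic against wild type the median of the list was -0.04. The log2 summed signal of 7 markers of plasma cells, a type with a large secretory reticulum, was 6.83 to 8.36 in exponential, 9.37 to 11.24 in wild-type and 7.05 to 10.35 in chronic arrays. Limma called 0 of these 7 markers in exponential against wild type, with 4 at an unadjusted p under 0.05. Their part in the values of the list was not tested. The 11 other ligases of the Rnf130 type had medians of -0.03 and -0.01 in chronic and exponential against wild type. Of these, Rnf13 was at 5.48, 5.45 and 5.53 in wild type, chronic and exponential arrays. Rnf43 was at -0.57 ± 0.16 in chronic against wild type (adjusted p = 0.213).

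For Mpp7, the median over 16 relatives and polarity partners was 0.07 in chronic and 0.06 in exponential against wild type. Prkci, the atypical protein kinase C of the polarity complex, was at 0.49 ± 0.16 (adjusted p = 0.288) in chronic and 0.66 ± 0.18 (adjusted p = 0.209) in exponential against wild type. Of 24 centriole duplication genes beside Cenpj, 5 were higher and 1 lower in chronic than in wild type at an unadjusted p under 0.05, with a median of 0.14. Cep120, a partner of Cenpj in centriole elongation, had the opposite sign to Cenpj and came nearest to a call, at -0.62 ± 0.12 (adjusted p = 0.0881). Rttn, which acts in building full-length centrioles, was at 0.65 ± 0.14 (adjusted p = 0.116), Stil, which recruits Cenpj, at 0.49 ± 0.16 (adjusted p = 0.286), and the centrin gene Cetn2 at 0.89 ± 0.31 (adjusted p = 0.327). Plk4, the kinase that starts duplication, was at 3.84 ± 0.23, 4.37 ± 0.76 and 4.08 ± 0.81 in the 3 groups, so its arrays overlapped. Without exponential replicate 4 its exponential minus wild-type difference went from 0.24 to -0.12. The exponential minus chronic difference of Plk4 then went from -0.29 to -0.65.

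**Figure D4:**
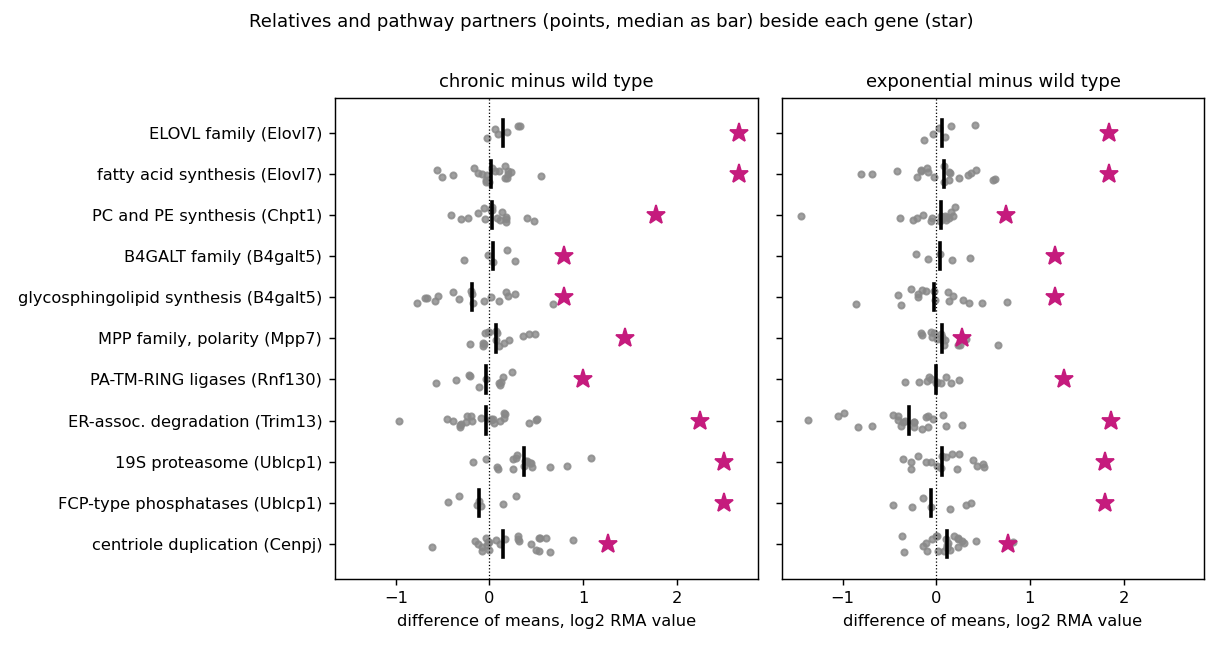
Differences in mean log2 expression from wild type (x axis, log2) for the genes of the 11 functional lists (y axis), as points with a bar at each list's median, in chronic and in exponential arrays, with the related member drawn as a star. The stars lie above their lists' medians, the 19S proteasome list sits at a median of 0.37 in the chronic phase, and the list of degradation in the endoplasmic reticulum at -0.29 in the exponential phase.

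Genes beside the members on the chromosome had differences centred near 0. Of the 54 nearest measured genes, 3 on each side of each member in the RefSeq gene order (assembly GRCm38.p6), the median difference was 0.01 in chronic and 0.03 in exponential against wild type. Of these, 1 was called by limma, Gzmb in chronic against wild type, and 0 in the other comparisons, with 5 and 4 neighbours at an unadjusted p under 0.05. Gzmb encodes the cytotoxic protease granzyme B and is the third measured neighbour of Cenpj. It was at 5.01 ± 0.16 (SD) in wild type, 7.22 ± 0.31 in chronic and 6.30 ± 2.41 in exponential arrays, and rose by 2.21 ± 0.18 (SE; adjusted p = 0.00801) in the chronic phase. Leaving out any single array kept this call (adjusted p up to 0.0498), but it was lost when all 3 groups shared 1 fit (adjusted p = 0.536), when all rows of the array were adjusted for (adjusted p = 0.0578) and in the methods' t-test after Benjamini-Hochberg adjustment (adjusted p = 0.319). In exponential against wild type Gzmb was at 1.29, and at 2.24 without exponential replicate 4 (adjusted p = 0.109). Gnptab, beside Chpt1, which starts the mannose tag of lysosomal enzymes, was at 0.95 ± 0.22 in exponential against wild type (adjusted p = 0.134), and it was called without exponential replicate 4 (1.10 ± 0.17, adjusted p = 0.0191). Trim13 lies beside Dleu2 and Mir16-1, a stretch known from its loss in human chronic lymphocytic leukemia. Dleu2 was at 1.47 ± 0.06, 1.53 ± 0.27 and 1.47 ± 0.18 and Mir16-1 at 2.10 ± 0.10, 2.00 ± 0.13 and 2.15 ± 0.31 in wild type, chronic and exponential arrays, with limma adjusted p of at least 0.864 against wild type. The group means of both lay below the array median of 2.30, where changes are compressed, so their flat levels say little. Of the zinc-finger genes around Zfp971, Zfp931 was at 0.39 ± 0.14 in chronic against wild type (adjusted p = 0.330).

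The genes whose pattern over the 11 arrays was most like each member are given as a description, since all arrays share the group differences that chose the members. Zfp971 and Mpp7 were most like the same genes, Tgds (r = 0.949 and 0.927) and Atp5h (r = 0.943 and 0.935), and each other (r = 0.925). C1qbp, a mitochondrial matrix protein, was among the 3 nearest of both Ublcp1 and Cenpj (r = 0.945 for each), with means of 5.89, 7.01 and 6.72 in wild type, chronic and exponential arrays. Elovl7 was most like Fgf13 (r = 0.958), which was at 3.57 ± 0.23, 4.74 ± 0.21 and 4.43 ± 0.75 in the same groups, followed by Lrp11 and Trim29 (r = 0.943 for each). Ublcp1 was also near the G-protein gene Gnai3 (r = 0.956) and the chaperonin gene Cct6a (r = 0.948). Chpt1 was nearest to Farsa (r = 0.944), Polr3k (r = 0.931) and Gmps (r = 0.923), and Cenpj to Ebna1bp2 (r = 0.949). Rnf130 was nearest to Park7 (r = 0.940), Eif3d (r = 0.937) and Mbd2 (r = 0.920), Trim13 to Rpl7 (r = 0.921), and B4galt5 to Mptx1 (r = 0.901). The weakest likeness of a nearest gene was that of B4galt5.

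Read array by array, the medians over the 9 genes lay closer together on the chronic than on the exponential arrays. The median of the 9 members, each taken relative to its wild-type mean, was 1.71, 1.80 and 1.81 on the chronic arrays and 0.77, 1.37, 1.31, 0.76 and 1.06 on exponential replicates 1 to 5, against -0.20, 0.17 and 0.09 on the wild-type arrays. All 9 members exceeded the highest wild-type array on each chronic array and on exponential replicates 2 and 3, and 7 did on exponential replicates 1, 4 and 5. Mpp7 was the lowest member on exponential replicates 1, 2, 3 and 5, while Elovl7 was the lowest on replicate 4.

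Some genes of other cell types moved with the groups as well. The summed signals given here follow the brightest markers of each list most. The log2 summed signal of 15 measured myeloid markers was 6.27 to 6.45 in wild type, 6.24 to 6.53 in chronic and 7.10 to 9.83 in exponential arrays, and of these markers Lyz2 was called (exponential minus wild type 2.91, limma adjusted p = 0.0114). The median difference over the 15 in that comparison was 0.23. S100a8 and S100a9 were at 2.69 and 3.36, but Mpo at -0.77 and Cebpb at -0.30. The 5 CD4 markers summed to 8.16 to 8.70 in wild type, 5.19 to 6.48 in chronic and 5.61 to 7.92 in exponential arrays, with Cd4 and Cd40lg called lower in chronic, and the 5 CD8 markers to 8.28 to 9.69, 9.04 to 9.85 and 5.68 to 9.97. The 8 measured erythroid markers summed to 8.77 to 10.01 in wild type, 5.29 to 9.60 in chronic and 5.37 to 6.83 in exponential arrays, with Car1 called lower in the exponential phase (-6.11, adjusted p = 0.0114). Car2 was at -2.47 in exponential against wild type, while Klf1 was at -0.24, Slc4a1 at 0.03 and the median of the 8 at -0.30. The 9 measured T-cell markers summed to 10.99 to 11.50, 10.36 to 10.92 and 10.81 to 10.95, and the 10 measured B-cell markers to 6.06 to 7.56, 5.82 to 7.55 and 6.37 to 8.69, with none called by limma. Exponential replicate 4 stood apart in several of these sums. Without it the exponential range was 7.10 to 8.12 for the myeloid and 5.37 to 5.46 for the erythroid markers. For the CD4 markers it was 5.61 to 6.51 and for the CD8 markers 9.64 to 9.97. The part of these other cell types in the levels of the 9 genes was not tested.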

How the data were processed

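RNA of enriched splenic T-cells from 11 samples was hybridized to Affymetrix arrays of the Mouse Gene 1.0 ST type. The authors summarized, normalized and log2-transformed the signals with RMA, version not given in the sources used here, and the deposited table of log2 values was used as it stands. It had 34760 rows, of which 21640 carried 1 gene symbol in the platform annotation, 1321 several and 11799 none, and 21553 matched a RefSeq gene ID (GRCm38.p6). Rows with several or no symbols were left out, and for 954 genes with more than 1 row the row of highest mean was kept, which left 19937 genes. RMA gives all arrays 1 distribution, so differences are relative to the whole array, and low rows are compressed toward the background. The number of arrays limits the precision.

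Groups were taken from the sample titles. Each of the 3 comparisons was fitted with limma 3.58.1 (R 4.3.3) on its own groups, with Benjamini-Hochberg adjustment over all 19937 genes. Calls needed an adjusted p under 0.05 and a change of at least 1.5-fold. The fit was tested on simulated normal values in which 100 genes changed 2-fold and 100 changed 4-fold. It called 61%, 81% and 81% of these 2-fold changes for the chronic, the exponential and the between-phase comparison. The simulation had no outlying array such as exponential replicate 4 and its own number of changed genes. These shares therefore do not tell what part of real 2-fold changes was called. The members and lists were chosen with earlier results of these data known. Members, the genes of each list nearest to a call, the close relatives, the 3 most correlated genes (Pearson's r, clone names left out) and the nearest 3 measured genes on each side were named. Alternatives changed the model, normalization, filters, rows and arrays.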

Additional observations from a re-analysis of the deposited data

How the results depend on the processing

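No direction of a median difference over the 9 genes was reversed under any alternative. The median chronic minus wild-type difference was 1.45 to 1.96 leaving out 1 array and moved beyond the replicate SD once, from 1.77 to 1.45 without wild-type replicate 1. Of single genes, 547 values stayed within their replicate SD and 2 moved, both for Mpp7 as the mean of its rows (0.92 in chronic minus wild type and -0.70 in exponential minus chronic). Calls were less stable. In chronic against wild type, 91 genes were called, against 154 with trended and robust variances, 623 in the unadjusted t-test of the methods, 0 after its Benjamini-Hochberg adjustment, 0 with all rows adjusted for, and 8 to 108 leaving out 1 array. The 7 called members became 4 in 1 fit over all groups, 0 in the adjusted t-test, 0 with all rows, and 3 to 5 leaving out 1 array, and the 0 called list genes became 1 (Psmd6) in 1 fit over all groups and 7 in the unadjusted t-test. In exponential against wild type, 83 genes became 477 in the unadjusted and 4 in the adjusted t-test, 45 with all rows, and 16 to 221 leaving out 1 array. The 4 called members became 0 in the adjusted t-test, 1 with all rows, and 0 to 5 leaving out 1 array, and the 0 list genes became 1 (Hacd3) in 1 fit over all groups and 11 in the unadjusted t-test. In exponential against chronic, the unadjusted t-test passed 123 genes, 3 members and 2 list genes (Sel1l and Slc44a1) where limma called 0, and 0 to 2 genes were called leaving out 1 array. The causes of these changes were not tested.

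Replicate numbers are shared between groups, and the labels do not say whether same-numbered arrays belong together. Deviations of same-numbered arrays correlated at -0.04 to 0.18 and those of other pairs at -0.23 to 0.16. So few pairs with overlapping ranges cannot decide whether the numbers mark a shared batch. With replicate number as a block, the exponential comparisons rest on exponential replicates 1 to 3. No other group has a replicate 4 or 5, so the counts below compare other arrays and not only another model. In exponential against wild type 139 genes instead of 83 were called and 1 list gene (Cers6). The members called were 7, 5 and 0 in the 3 comparisons. The 5 in exponential against wild type were different members in part, as B4galt5 and Cenpj were lost and Elovl7, Zfp971 and Chpt1 were gained. For Elovl7 in exponential minus chronic the block gave 0.05 instead of -0.81, again from exponential replicates 1 to 3 alone.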
